A study of Mus musculus with 3 samples.

Results

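The insulin-like growth factor (IGF) genes on a mouse whole-genome array were examined: the ligands Igf1 and Igf2, the receptor Igf1r and the binding proteins Igfbp2, Igfbp3, Igfbp4, Igfbp5, Igfbp6 and Igfbp7. They were taken by gene name, with every probe of each gene, which gave 9 genes and 20 probes of 28471 genes and 41156 probes on the arrays. The RNA came from 3 stromal populations sorted from the mesenteric lymph nodes of wild-type C57BL/6NCrl mice: fibroblastic reticular cells (FRC, gp38+ CD31-), lymphatic endothelial cells (LEC, gp38+ CD31+) and blood endothelial cells (BEC, gp38- CD31+), all gated as CD45- and CD24-. FRC build the fibre network of the node, LEC line its lymph spaces and BEC line its blood vessels. Each population had 1 single-colour array, so no difference has a replicate check and no test was made. The mean purity over the sorted subsets was 88% ± 1.5 per the labels, which do not name the kind of error and give no age of the mice and no number of mice or sorts per RNA. Between 30 and 50 ng of total RNA was amplified in 1 round, and the 3 arrays lay on 1 slide.

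IGF1 and IGF2 are secreted peptides that act mainly through the receptor tyrosine kinase IGF1R, which signals through insulin receptor substrates to the PI3K-AKT pathway. The secreted binding proteins hold the ligands in blood and tissue, prolong their life and usually limit their access to the receptor. Proteases such as PAPP-A and HTRA1 cut binding proteins and free the ligand, and mesenchymal cells are a common local source of IGF1 in many tissues.

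The probes are 60-base oligonucleotides, and 4 of them that lie in protein-coding sequence are shown because they identify the transcript part that was measured. Per the file headers, positions refer to the mouse genome build mm9. The Igf1 probe at chr10:87376418-87376477 on the plus strand codes for part of the mature peptide, and its cysteine codons are in capitals. The Igfbp3 probe lies on the minus strand between chr11:7108469-7109478, a span of 1010 bases, so the 60 bases are not contiguous in the genome. The Igfbp4 probe lies at chr11:98909591-98909650 on the plus strand, and lysine and arginine codons are in capitals for both Igfbp3 and Igfbp4. The Igfbp2 probe at chr1:72898677-72898736 on the plus strand ends with the stop codon, in capitals.
Igf1: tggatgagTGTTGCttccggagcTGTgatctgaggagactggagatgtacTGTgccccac
Igfbp3: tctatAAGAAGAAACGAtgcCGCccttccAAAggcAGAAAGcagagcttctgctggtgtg
Igfbp4: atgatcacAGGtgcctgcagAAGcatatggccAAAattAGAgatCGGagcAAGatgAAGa
Igfbp2: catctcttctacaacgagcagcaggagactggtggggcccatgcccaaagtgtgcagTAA

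Of the other probes that carry results, 5 that lie farther along their transcripts are shown by their first 30 bases. The 2 Igfbp5 probes are given because their values differed: the first starts at base 5604 of the transcript (chr1:72904829-72904888, minus strand) and the second at base 3067 (chr1:72907366-72907425, minus strand). They lie 2537 bases apart both in the transcript and in the genome, so no intron separates them. The remaining 3 are the probes standing for Igfbp3 (chr11:7106594-7106653, minus strand), Igf2 (chr7:149836673-149836709, minus strand, the part of the probe that the files place) and Igfbp7 (chr5:77778355-77778414, minus strand).
Igfbp5 at base 5604: cacatcacatattactgtagctctctatag
Igfbp5 at base 3067: aatagaattttccttggtgtctcccatcta
Igfbp3: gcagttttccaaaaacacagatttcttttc
Igf2: aacatgcattttctggcaaaatcaaagctt
Igfbp7: taacccactaacactttattacagccagct

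A level is the log2 of the processed spot intensity minus the 75th percentile of the same array, an intensity of 387 (FRC array), 268 (LEC array) and 361 (BEC array). Intensities are printed before this scaling, and levels and differences after it. A difference is the first-named population minus the second for the same probe, and genes were called at 4-fold, a log2 difference of 2. Each gene is represented by its probe with the highest mean level. All 9 genes were well above background on all 3 arrays, as were 15 of the 20 probes. The highest level was on the FRC array for 5 genes (Igf1, Igfbp2, Igfbp4, Igfbp5, Igfbp6), on the LEC array for Igf1r and on the BEC array for 3 (Igf2, Igfbp3, Igfbp7). For 6 of the 9 the highest population led the next by at least 2-fold, and smaller gaps were not ordered. The scanner software's own error model put the error of a single log2 difference at 0.20 to 0.32 for member probes above background on all arrays. The median SD between replicate spots was 0.05 to 0.06, and both leave out variation between mice, sorts and amplifications.

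**Figure D1:**
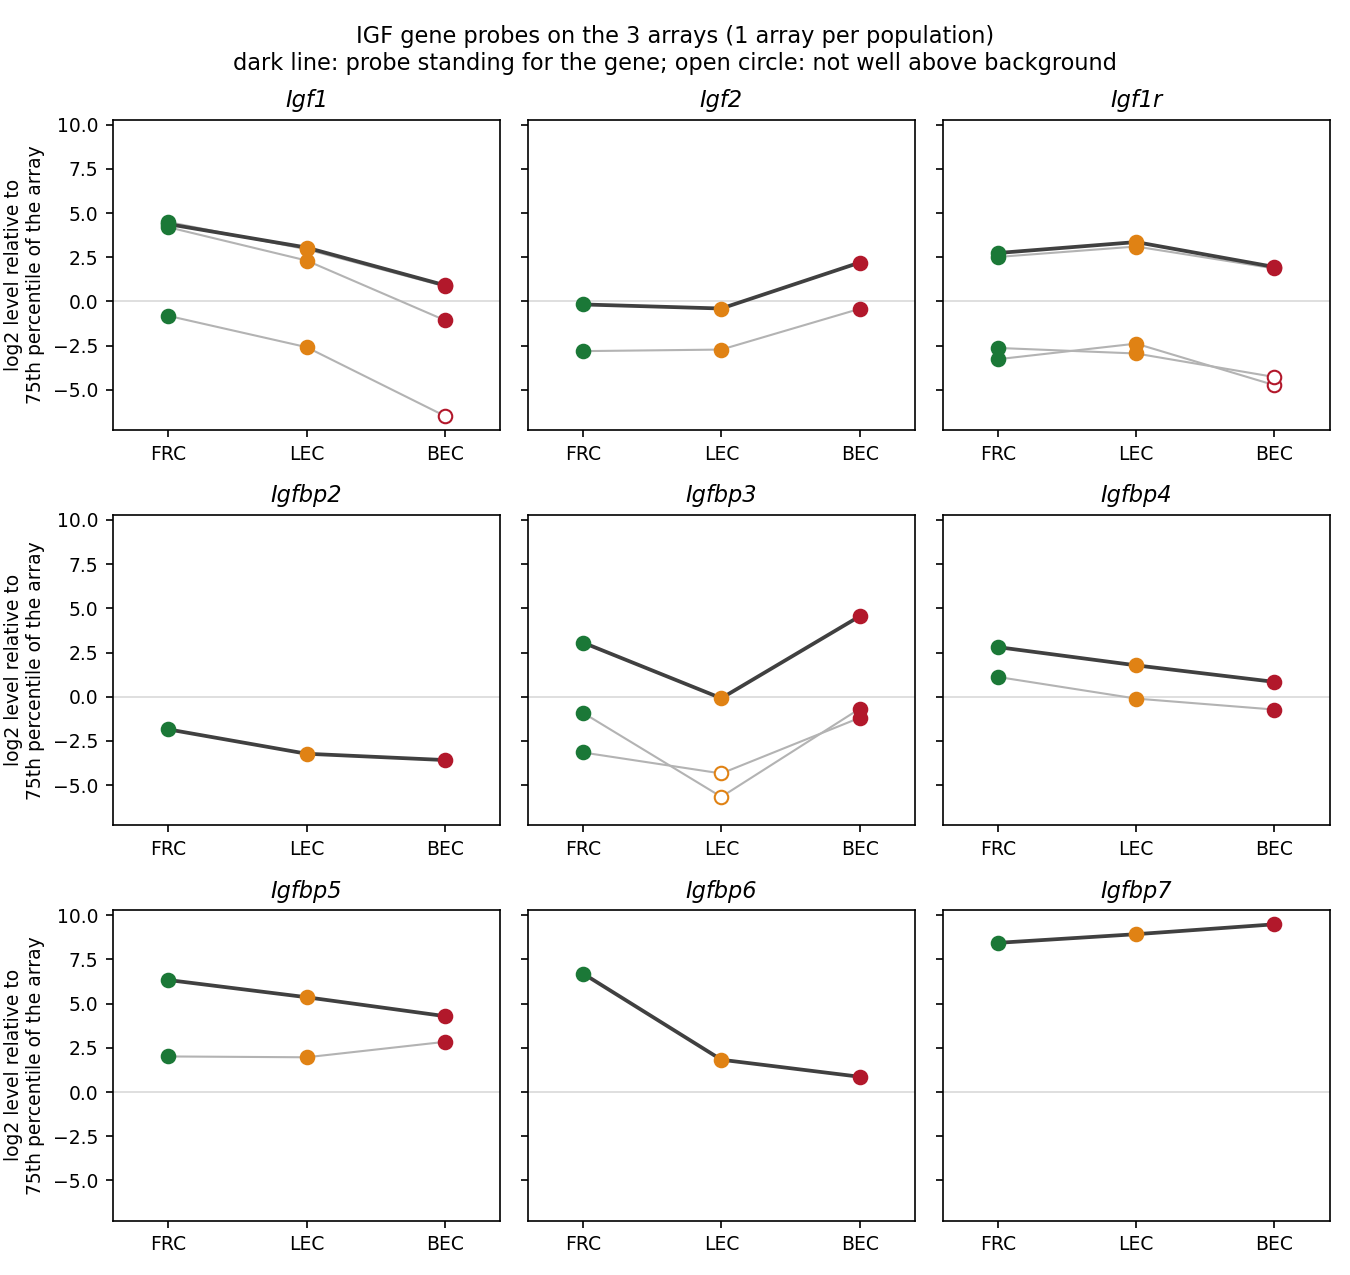
Level of every probe of the 9 IGF genes on the FRC, LEC and BEC arrays (log2 relative to the 75th percentile of the array; 1 array per population; open circles were not well above background). The FRC point is the highest for Igfbp6 by a wide margin, the BEC point is the highest for Igf2, and the probes of Igfbp3 share a dip on the LEC array.

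The sorted populations were checked on genes that mark them. FRC genes were higher in FRC than in LEC at 4-fold for 10 of 10 genes, and higher than in BEC for 9 of 10, where Ccl21a differed by -0.16. LEC genes were higher in LEC for 8 of 8 against FRC and 7 of 8 against BEC, and BEC genes were higher in BEC for 8 of 8 against FRC and 6 of 8 against LEC. Of all genes, 5.90% were called higher in FRC than in LEC and 7.54% higher in FRC than in BEC. For LEC the shares were 4.85% against FRC and 3.37% against BEC. For BEC they were 6.55% against FRC and 3.38% against LEC. FRC genes were still well above background on the endothelial arrays. Dcn, a collagen-binding proteoglycan of fibroblasts, had a level of 9.87 in FRC, 6.32 in LEC and 3.54 in BEC. In RNA from sorted populations, fewer cells of a type and less RNA per cell cannot be told apart. The summed linear level of the 10 FRC genes was 3614 in FRC, 248 in LEC and 503 in BEC, in units of the array's 75th percentile. Most of the BEC sum was Ccl21a, a chemokine gene that high endothelial venules of mice also express. The summed level of the 8 LEC genes was 3.13 in FRC, 497 in LEC and 45.3 in BEC. For the 8 BEC genes it was 17.8 in FRC, 364 in LEC and 1411 in BEC. The part of either signal in the LEC minus BEC differences was not tested. Between the endothelial arrays, 2 of the 10 FRC genes were called higher in LEC (Ccl19 and Dcn) and Ccl21a was called higher in BEC. The shares of all genes there were 3.37% and 3.38%.

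Igf1, the ligand made in many tissues under growth hormone, was highest in FRC on all 4 of its probes. The probe standing for the gene had an intensity of 8030.2 in FRC, 2217 in LEC and 681 in BEC. The FRC array was the highest and the BEC array the lowest, with the LEC array between them. The log2 difference was 1.33 for FRC minus LEC, 3.46 (11.0-fold) for FRC minus BEC and 2.13 (4.39-fold) for LEC minus BEC. Each pair of populations was more than 2-fold apart, and both comparisons with BEC passed 4-fold, although LEC minus BEC was 1.95 with normexp background and FRC minus LEC was 2.29 with levels divided by the spike-in slope. A further Igf1 probe was spotted 10 times on each array. Its kept spots ran between 8394 and 8843 in FRC, between 2028 and 2121 in LEC and between 631 and 720.1 in BEC. No spot of one array overlapped those of another, and the 3 differences of their means were 1.55, 3.64 and 2.09 in the same order of comparisons.

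The other 2 Igf1 probes gave the same order. The probe starting at base 3895 of the transcript had 7106 in FRC, 1333 in LEC and 173 in BEC, a log2 difference of 5.26 (38.4-fold) for FRC minus BEC. It lies 3051 bases beyond the 10-spot probe in the same stretch of the genome, and its difference stands beside 3.46 at the coding probe. The last probe, designed on a cDNA clone, had 219.9 in FRC and 44.6 in LEC, and was not well above background in BEC, so FRC was at least 11.8-fold and LEC at least 3.46-fold higher than BEC there.

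Igf2, the ligand known mostly from fetal growth and an imprinted gene, had the opposite direction. Its 10-spot probe, which stands for the gene, had a level of -0.17 in FRC, -0.40 in LEC and 2.20 in BEC. The kept spots ran between 337 and 350.2 in FRC, between 188 and 219 in LEC and between 1579 and 1699 in BEC, with 7, 10 and 8 spots kept in that order. BEC lay apart from both other populations, by a log2 difference of -2.37 (5.17-fold) for FRC minus BEC and -2.60 (6.06-fold) for LEC minus BEC. FRC and LEC differed by 0.23 and were not ordered. The second Igf2 probe had 55.1 in FRC, 40.6 in LEC and 269.9 in BEC, with differences of -0.09, -2.39 and -2.30.

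**Figure D2:**
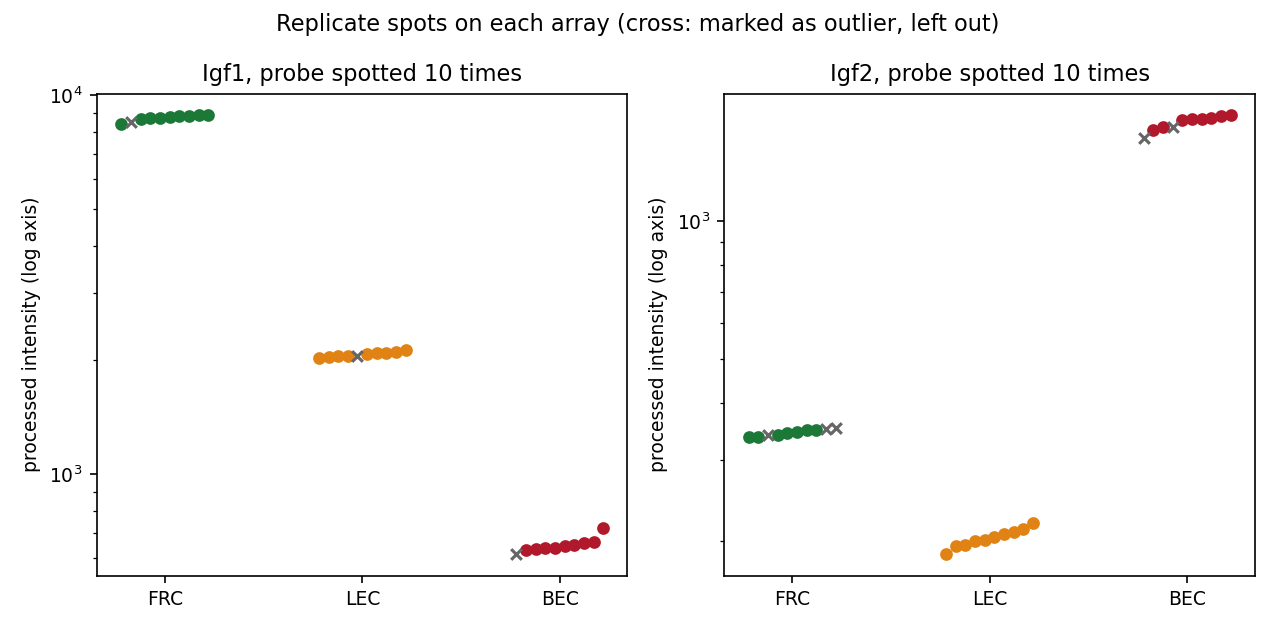
Processed intensity (log axis) of each of the 10 spots of the Igf1 and Igf2 probes on the FRC, LEC and BEC arrays; crosses are spots left out as outliers by the scanner software's own mark. Igf1 spots are highest on the FRC array (8394 to 8843) and Igf2 spots on the BEC array (1579 to 1699), with no overlap between arrays.

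Igf1r, the receptor tyrosine kinase that binds both ligands, was the most even of the ligand and receptor genes. The probe standing for it had 2584 in FRC, 2750 in LEC and 1393 in BEC. The scaled differences were -0.62 for FRC minus LEC, 0.79 for FRC minus BEC and 1.41 for LEC minus BEC, so BEC was lower than LEC by more than 2-fold and no pair reached 4-fold. A second bright probe, 5442 bases upstream in the same genomic stretch, gave -0.59, 0.65 and 1.24. The 2 dimmer probes were not well above background in BEC, and LEC was at least 3.97-fold higher than BEC on one and at least 2.51-fold on the other. Their FRC minus LEC differences were -0.88 and 0.31 in that order, so the last probe had FRC highest, by under 2-fold.

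Igfbp2 encodes a binding protein that prefers IGF2. Its intensity was 108 in FRC, 28.7 in LEC and 30.1 in BEC, close to the lowest intensity called above background on the endothelial arrays (14.6 in LEC and 17.4 in BEC). The log2 difference was 1.38 for FRC minus LEC and 1.74 for FRC minus BEC, and LEC and BEC were not ordered (0.36). With normexp background the FRC differences were 0.41 and 0.70, both under 2-fold.

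Igfbp3, the main carrier of IGFs in serum, was the only member with its lowest level in LEC by more than 2-fold. The probe standing for the gene had 3233 in FRC, 252 in LEC and 8464 in BEC. BEC and FRC were both far above LEC: the log2 difference was 3.15 (8.88-fold) for FRC minus LEC and -4.64 (24.9-fold) for LEC minus BEC. FRC minus BEC was -1.49, under 4-fold. The coding probe that spans 1010 genomic bases had 43.5 in FRC and 158 in BEC and was not well above background in LEC. FRC was there at least 2.06-fold and BEC at least 8.02-fold higher than LEC. On the third probe, designed on a cDNA clone, LEC was again not well above background, with FRC at least 9.75-fold and BEC at least 11.4-fold higher, while FRC and BEC differed by -0.23. The 3 probes thus shared the low LEC value but not the size of the gap between FRC and BEC.

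Igfbp4, which binds both IGFs and is cut by PAPP-A, had its highest level in FRC without a call, and LEC and BEC were not ordered. It had 2709 in FRC, 918 in LEC and 646 in BEC, with differences of 1.03, 1.97 and 0.94 for FRC minus LEC, FRC minus BEC and LEC minus BEC. The coding probe gave 1.22, 1.85 and 0.62. The FRC minus BEC difference passed 4-fold at 2.51 with levels divided by the spike-in slope.

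Igfbp5, a binding protein that also associates with extracellular matrix, depended on the probe. The probe at base 5604 had 31284 in FRC, 11038 in LEC and 7083 in BEC. Its differences were 0.97, 2.04 (4.12-fold) and 1.07. The probe at base 3067 had 1561 in FRC, 1047 in LEC and 2583 in BEC. Its differences were 0.05, -0.83 and -0.87. The 2 probes therefore put opposite populations highest, and the 4-fold call for FRC over BEC rested on the brighter one. The mean of both gave 0.61 for FRC minus BEC, and the spike-in slope alternative gave 2.37 for FRC minus LEC on the brighter probe.

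Igfbp6, a binding protein with a strong preference for IGF2, had the largest differences of the 9 genes. Its single probe, designed on a cDNA clone, had 40342 in FRC, 952 in LEC and 657 in BEC. FRC stood alone: the log2 difference was 4.88 (29.4-fold) for FRC minus LEC and 5.84 (57.3-fold) for FRC minus BEC, while LEC minus BEC was 0.96, under 2-fold.

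Igfbp7, a low-affinity IGF binder known from vascular matrix, had 134395 in FRC, 130747 in LEC and 259409 in BEC. No spot was saturated. The differences were -0.49 for FRC minus LEC, which turned to 1.38 when levels were divided by the array's spike-in slope, then -1.05 for FRC minus BEC and -0.56 for LEC minus BEC. Only FRC and BEC were more than 2-fold apart, and that gap was -0.04 under the same alternative.

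For FRC minus LEC, 2 of the 9 genes were called, Igfbp3 and Igfbp6, both higher in FRC, against a background of 10.8% of 18624 genes compared (5.90% higher in FRC, 4.85% higher in LEC). The median difference of the 9 was 1.03, beside -0.02 for all genes. For FRC minus BEC, 4 of 9 were called, with Igf1, Igfbp5 and Igfbp6 higher in FRC and Igf2 higher in BEC, against 14.1% of 19024 genes (7.54% higher in FRC, 6.55% higher in BEC). The median was 1.74, beside -0.09 for all genes. For LEC minus BEC, 3 of 9 were called, with Igf1 higher in LEC and Igf2 and Igfbp3 higher in BEC, against 6.75% of 18497 genes (3.37% higher in LEC, 3.38% higher in BEC). The median was 0.94 and the mean was -0.10, which differ in sign, and the median of all genes was -0.06. With 9 genes chosen by name, these counts describe the members and say nothing particular to the family. The first 2 comparisons share the FRC array and each other pair also shares an array, so the 3 counts are not independent.

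**Figure D3:**
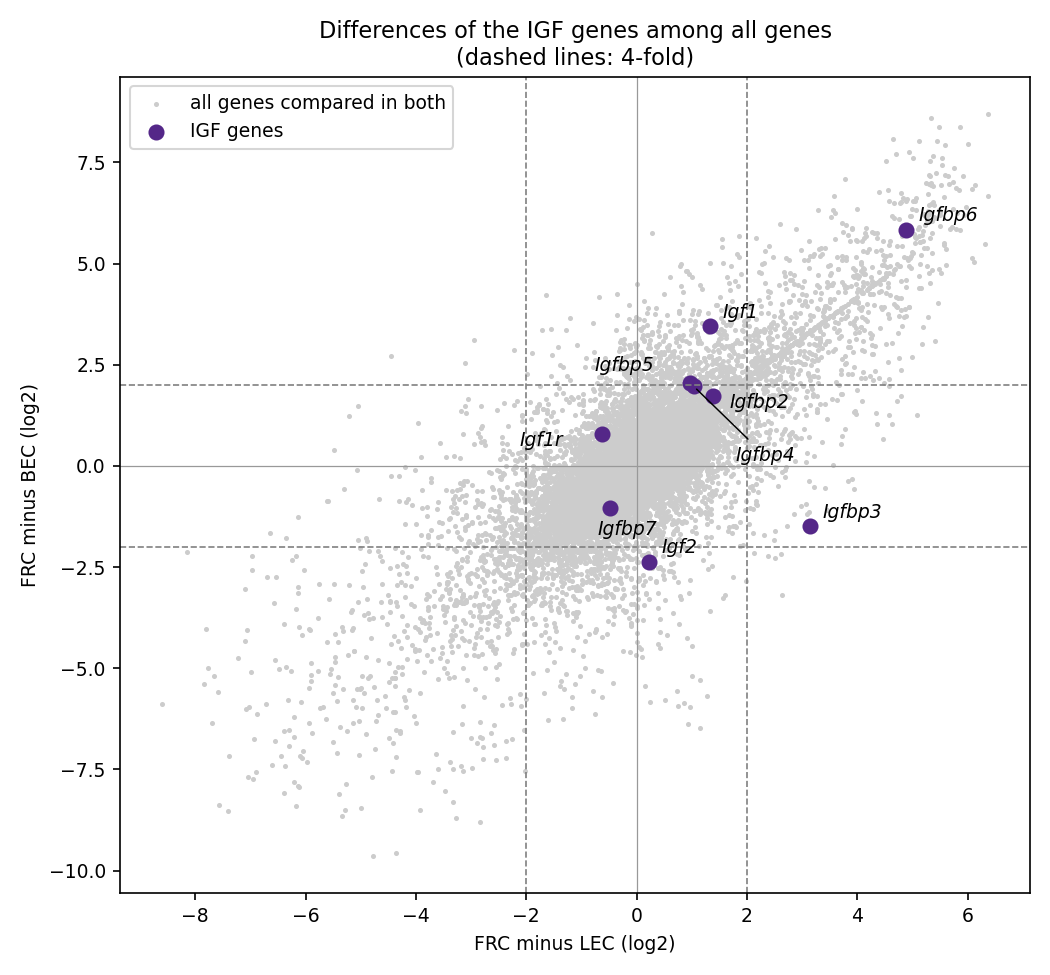
Log2 difference FRC minus LEC (x axis) against FRC minus BEC (y axis) for the 9 IGF genes (purple, labelled) and all genes compared in both (grey), with dashed lines at 4-fold; both axes share the FRC array. Igfbp6 lies at 4.88 and 5.84 in the upper right, Igfbp3 at 3.15 and -1.49 in the lower right, and Igf2 at 0.23 and -2.37.

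The level of FRC genes on the endothelial arrays was set beside these values. The FRC minus LEC difference of the 10 FRC genes ran between 2.64 and 6.00. Igfbp6, at 4.88, lay within that range, as did Igfbp3 at 3.15, whereas Igf1 (1.33), Igfbp2 (1.38), Igfbp4 (1.03) and Igfbp5 (0.97) lay below all 10. Relative to FRC, the LEC array thus held more Igf1 signal than signal of any of these FRC genes. For FRC minus BEC the FRC genes ran between -0.16 and 7.96 with a median of 6.04, and Igf1 was at 3.46. The median LEC minus BEC difference of the FRC genes was 1.68, beside 2.13 for Igf1. Its part in the LEC over BEC difference of Igf1 was not tested.

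**Figure D4:**
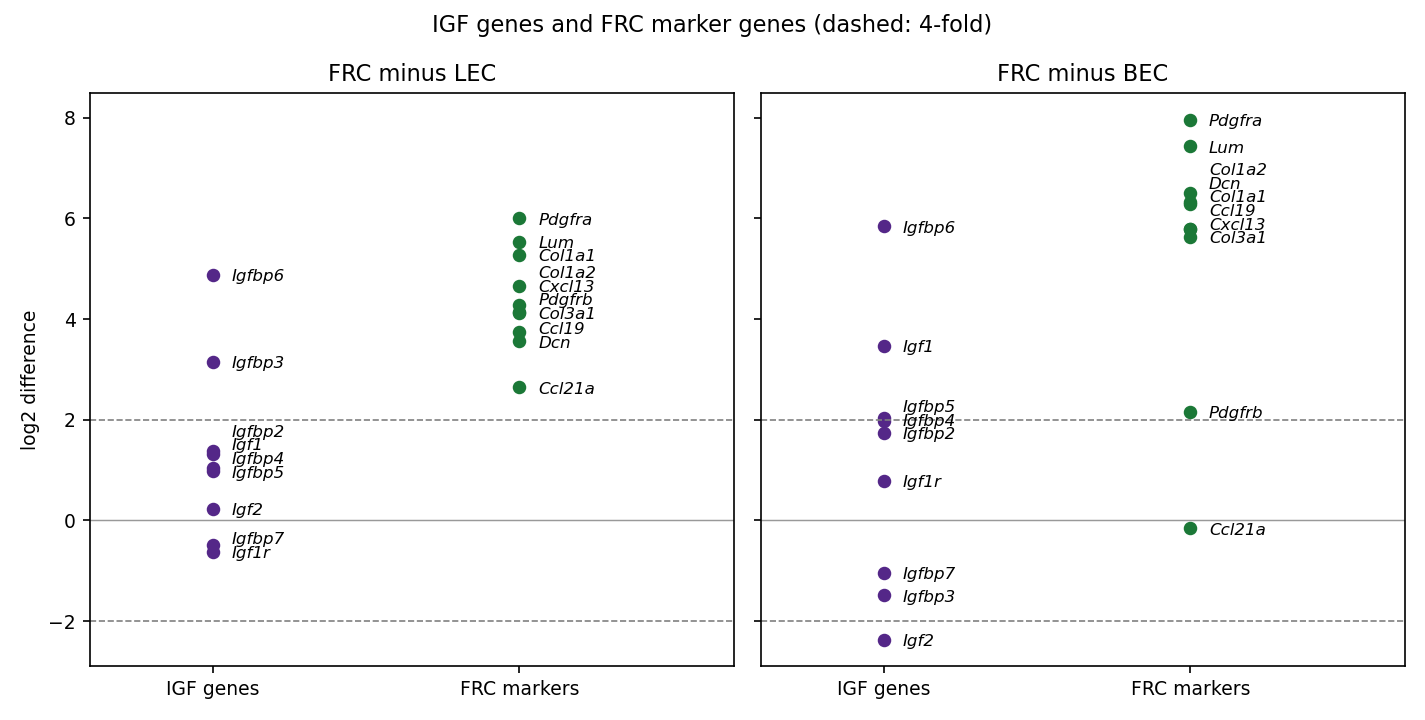
Log2 differences of the 9 IGF genes (purple) and the 10 FRC marker genes (green), FRC minus LEC on the left and FRC minus BEC on the right, each point a gene and dashed lines at 4-fold. On the left, Igf1, Igfbp2, Igfbp4 and Igfbp5 (0.97 to 1.38) lie below every FRC marker (2.64 to 6.00), and Igfbp6 (4.88) lies among them.

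Markers of other cells that a gate could hold were read beside the genes highest in BEC. Of 13 blood-cell genes, 12 were compared for FRC minus BEC and 2 were called, both higher in BEC (6.55% of all genes). Ptprc, which encodes the CD45 of the gate, had a level of -2.36 in FRC, -1.57 in LEC and 0.23 in BEC. The B cell gene Cd79a had -4.00 in FRC, -3.37 in LEC and -1.06 in BEC. The summed linear level of the 13 was 8.23 in FRC, 13.0 in LEC and 9.66 in BEC. Itgam was not well above background on any array. For LEC minus BEC, 2 of 12 compared were called, Cd3g and Cd79a, both higher in BEC (3.38% of all genes). Of the 12 differences 5 were above 0, the highest at 1.30, and 7 were below 0. The part of blood cells in the BEC levels of Igf2 and Igfbp3 was not tested. Cd24a, whose product the gate excluded, had a level of 1.61 in FRC, 3.40 in LEC and 3.89 in BEC.

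Among 6 pericyte and smooth muscle genes the directions were mixed, and their summed linear level was 54.5 in FRC, 55.9 in LEC and 41.6 in BEC. Des was higher in FRC by 3.67 against LEC and 2.01 against BEC, whereas Cnn1 had -2.12 and -3.02. Rgs5 was higher in FRC by 2.19 against BEC on the probe standing for it, but another probe gave -0.87. Of the adipocyte genes, Plin1 was at least 3.97 higher in FRC than in LEC, and Cidec had -2.35 against LEC. For FRC minus BEC 3 adipocyte genes were compared, with differences between -4.14 and 3.65. Of these, 1 was called higher in FRC and 1 higher in BEC, beside 7.54% and 6.55% of all genes. The summed linear level of the 4 adipocyte genes was 2.28 in FRC, 1.24 in LEC and 3.70 in BEC. Lep was not well above background on any array. Their part in the IGF gene levels was not tested.

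The other genes of the pathway were taken from lists of 73 genes, of which 70 were on the array. For FRC minus LEC, 13 of 63 compared were called higher in FRC and 2 higher in LEC, with a median of 0.32, beside 5.90% and 4.85% of all genes. For FRC minus BEC, 14 of 63 were called higher in FRC and 3 higher in BEC, with a median of 0.23, beside 7.54% and 6.55% of all genes. For LEC minus BEC, 1 of 60 was called higher in LEC and 4 higher in BEC, with a median of -0.07, beside 3.37% and 3.38% of all genes. Ins1, Igfbp1 and Pappa2 were not well above background on any array.

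Of the other IGF and insulin ligands and receptors, 0 of 4 compared were called in any comparison. The shares of all genes called were 10.8% for FRC minus LEC, 14.1% for FRC minus BEC and 6.75% for LEC minus BEC. Igf2r, the receptor that clears IGF2, had 6198 in FRC, 1741 in LEC and 4939 in BEC, with FRC minus LEC at 1.30 and LEC minus BEC at -1.07. Insr, the insulin receptor, had FRC minus BEC at -0.95 and LEC minus BEC at -1.26 on the probe standing for it, but another probe gave 0.63 for LEC minus BEC. Of 7 growth hormone axis genes, 0 were called in any comparison, beside the same shares of all genes. The growth hormone receptor Ghr differed by 0.83, -0.31 and -1.14 in the 3 comparisons. Its other probes ran between -0.21 and 1.12 for FRC minus BEC and between -1.03 and 0.40 for LEC minus BEC. Igfals, which encodes the acid-labile subunit of the serum carrier complex, had 224 in FRC and was not well above background on either endothelial array, so the log2 difference was at least 3.41 for FRC minus LEC and at least 3.59 for FRC minus BEC.

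Of 7 compared genes for proteases of binding proteins and their inhibitors, 2 were called higher in FRC than in LEC (5.90% of all genes) and than in BEC (7.54% of all genes). Pappa, the metalloprotease PAPP-A that cuts IGFBP4, had 684 in FRC and 19.6 in LEC, a log2 difference of 4.60, and BEC was not well above background, so that FRC was at least 36.7-fold higher. Htra1, a serine protease that cuts IGF binding proteins, had 39885 in FRC, 1030.1 in LEC and 2096 in BEC, with differences of 4.75 and 4.15. Stc2, an inhibitor of PAPP-A, had 297 in FRC, 546 in LEC and 72.9 in BEC. LEC minus BEC was 3.33 (10.1-fold). Pappa was thus highest on the FRC array and Stc2 on the LEC array.

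Of the genes for other proteins with an IGFBP-like N-terminal domain, 6 of 10 were called higher in FRC for FRC minus LEC (5.90% of all genes), with a median of 3.68. For FRC minus BEC 6 of 10 were called higher in FRC (7.54% of all genes), with a median of 2.62. They were Htra1, which is also counted among the proteases, Htra3, Htra4 and the matricellular genes Ccn3, Ccn4 and Ccn5. Htra3, a serine protease of the same family as Htra1, had 70252 in FRC, 919.6 in LEC and 805 in BEC, with differences of 5.73 and 6.35. Its other probes gave smaller differences, between 2.35 and 3.77 against LEC and between 2.13 and 3.92 against BEC. Ccn3 differed by 4.48 and 2.05 and was higher in BEC than in LEC by 5.40-fold. Ccn2, another matricellular gene, had a LEC minus BEC difference of -2.06. Ccn4 was not well above background in LEC or BEC, and FRC minus LEC was at least 4.33. Ccn5 differed by 3.03 and 3.19, and Htra4 by 4.88 and 4.43.

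Of the cell-surface partners, Cd93, an endothelial receptor reported to bind IGFBP7, had 126 in FRC, 6269 in LEC and 39652 in BEC. Its differences were -6.17 for FRC minus LEC, -8.40 for FRC minus BEC and -2.23 for LEC minus BEC. Another Cd93 probe gave -3.86, -5.82 and -1.96 for the same comparisons, the last under 4-fold. Lrp1, a scavenger receptor that can bind IGFBP3, had 7230.2 in FRC, 189 in LEC and 212 in BEC, with differences of 4.72 and 4.99. Itga5, an integrin chain, was higher in BEC, with -2.87 for FRC minus BEC and -2.02 for LEC minus BEC. Itgav was higher in FRC than in BEC by 2.87 on the probe standing for it, but another probe gave -0.36.

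For FRC minus LEC, 25 genes of receptor-proximal and PI3K-AKT signalling were compared, with a median of 0.05. Of these, 2 were called higher in FRC and 1 higher in LEC, beside 5.90% and 4.85% of all genes. Irs1, the docking protein below IGF1R and the insulin receptor, had 3647 in FRC, 80.3 in LEC and 116 in BEC, with differences of 4.98 (31.5-fold) and 4.88 (29.4-fold). FRC stood alone for Irs1, and LEC and BEC differed by -0.10. Akt2, a kinase of the pathway, differed by 2.15 and 2.61, but another probe gave 1.28 for FRC minus LEC, under 4-fold. Pik3cb, a catalytic PI3K subunit, had 31.7 in FRC, 111 in LEC and 269 in BEC, with differences of -2.34 and -3.19. For FRC minus BEC 3 genes were called higher in FRC and 1 higher in BEC, beside 7.54% and 6.55% of all genes. The third FRC gene was Pdpk1, the kinase that activates AKT, at 2.48, but another probe gave 0.26. For LEC minus BEC 0 were called, beside 3.37% of all genes higher in LEC and 3.38% higher in BEC.

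Of the genes that regulate Igf2 RNA or share its imprinting, H19, the imprinted neighbour of Igf2, differed by 0.73, 0.67 and -0.06 and had no call (another probe gave -0.36 for FRC minus BEC), whereas Igf2 was called higher in BEC. Igf2bp2, which encodes an RNA-binding protein of the Igf2 message, had 359 in FRC, was not well above background in LEC and had 46.0 in BEC. FRC minus LEC was at least 4.09 and FRC minus BEC was 2.86. Plagl1, an imprinted zinc finger gene, had an FRC minus LEC difference of 2.33 on its main probe and 0.29 on the other.

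**Figure D5:**
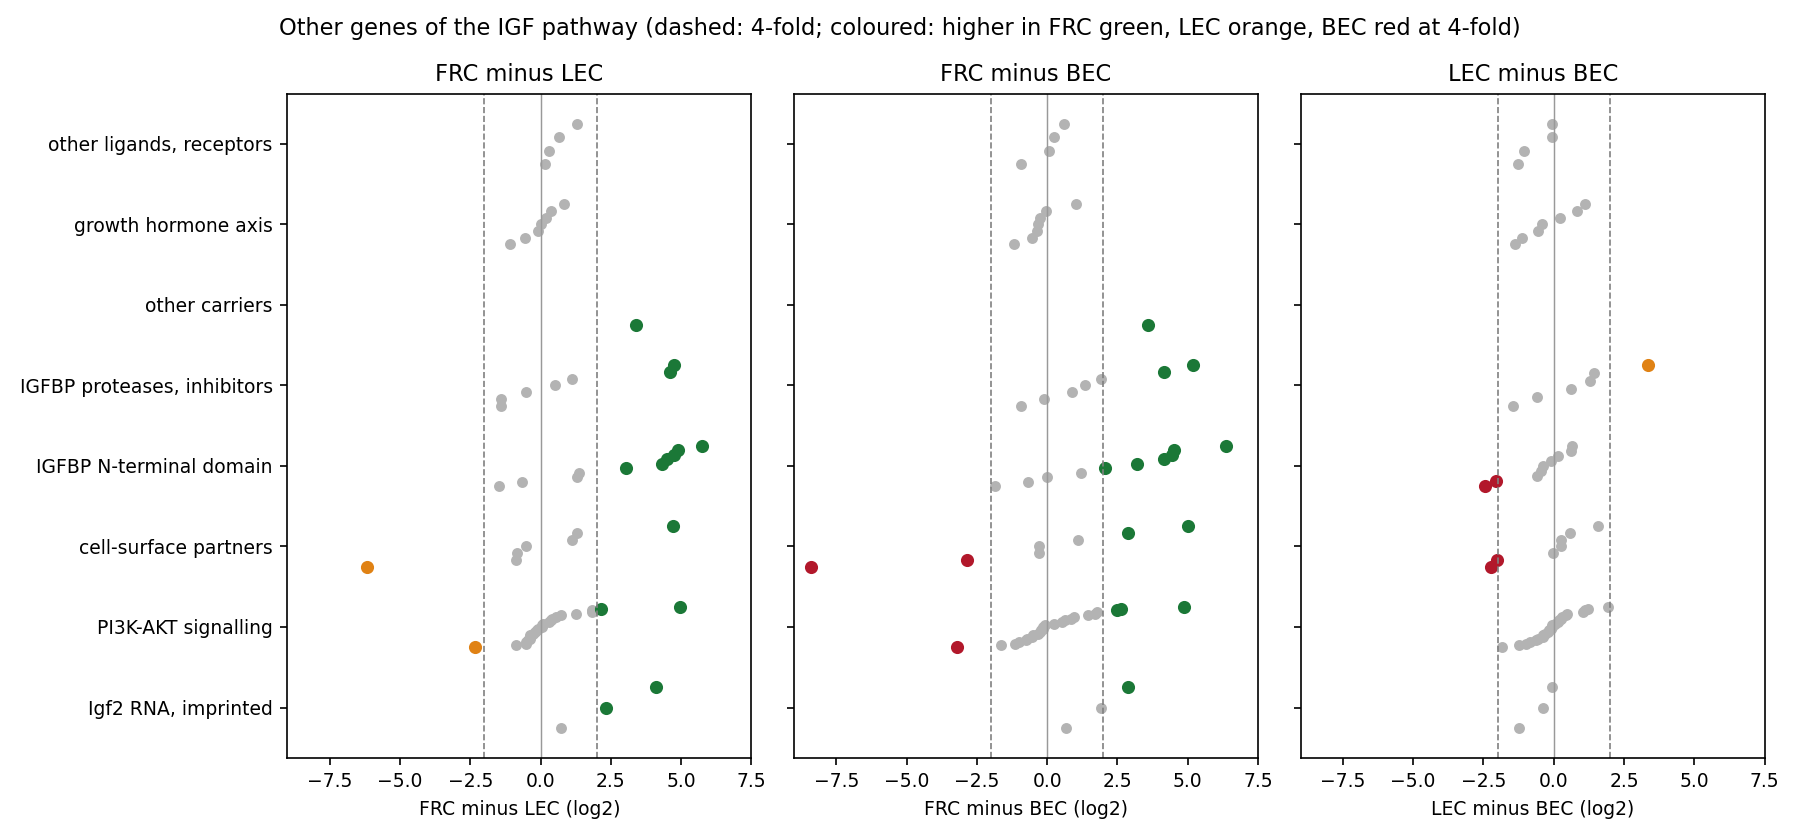
Log2 differences of the other IGF pathway genes compared, by list, for FRC minus LEC (left), FRC minus BEC (middle) and LEC minus BEC (right); each point is a gene, dashed lines mark 4-fold, and coloured points were called higher in FRC (green), LEC (orange) or BEC (red). The IGFBP N-terminal domain list holds 6 green points in both FRC comparisons, and the largest difference of any listed gene is Cd93, at -8.40 for FRC minus BEC.

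Upstream sequence was read for Igf1, Igfbp4, Igfbp5 and Igfbp6, the 4 genes with the largest positive FRC minus BEC differences on the probe standing for each gene. The 80 bases before the RefSeq start are given (build GRCm38.p6), a different build from that of the probes. They are chr10:87861031-87861110 on the plus strand for Igf1, chr11:99041164-99041243 on the plus strand for Igfbp4, chr1:72874866-72874945 on the minus strand for Igfbp5 and chr15:102144106-102144185 on the plus strand for Igfbp6. Capitals mark TATAAA, searched on both strands with GGGCGG in the 300-base windows from 250 bases before to 50 after each start.
Igf1: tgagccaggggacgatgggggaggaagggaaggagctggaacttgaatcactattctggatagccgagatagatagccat
Igfbp4: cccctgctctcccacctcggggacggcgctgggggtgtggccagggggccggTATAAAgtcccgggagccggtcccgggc
Igfbp5: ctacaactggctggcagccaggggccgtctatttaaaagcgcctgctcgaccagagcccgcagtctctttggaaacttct
Igfbp6: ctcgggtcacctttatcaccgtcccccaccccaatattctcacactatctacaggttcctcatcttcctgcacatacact

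All 9 genes matched the RefSeq table, with 13 windows. TATAAA was in 2 of the 13, those of Igfbp4 and Igfbp6, where the Igfbp6 match lies outside the printed bases, and in 13.6% of all 32851 promoter windows. GGGCGG was in 5 of the 13, of Igf1r, Igf2, Igfbp2 and Igfbp7, and in 35.7% of all. A match describes these letters only and says nothing of binding.

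Genes with the most similar pattern were sought for the 5 called members among 12539 genes well above background on all arrays, by the Euclidean distance between log2 levels centred over the 3 arrays. The closest to Igf1 were Celf2 (0.07) and Bace1 (0.10), with 57 genes within 0.5. Lcp1 (0.05) and Hoxb5 (0.16) lay closest to Igf2. Asb4 (0.05) and Ly6c2 (0.30) lay closest to Igfbp3, which had the fewest neighbours, 7 genes within 0.5. Pofut1 (0.02) and Rxrg (0.05) lay closest to Igfbp5, which had 291. Gas1 (0.04) and Ly6k (0.08) lay closest to Igfbp6, which had 44. With 3 arrays, such a likeness describes these arrays only.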

How the data were processed

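The deposited files give the intensity of 43379 non-control spots on each array. The submitters' processing notes name Agilent Feature Extraction 10.7.3.1. Background was subtracted in that software and arrays were not scaled to each other, per the file headers. The authors' deposited value table holds linear intensity with a lowest value of 15 and a median of 40.2 in each column, a correlation of 0.99998 across probes with the scanner log2 values, and a program not given in the sources used here. It served as an alternative.

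Spots marked as outliers were left out and spots of a probe were averaged. Log2 levels were set against the 75th percentile of each array, with Python 3.11.15 and pandas 2.3.3, and limma 3.58.1 for the normexp alternative. Probes well above background made up 60.5% (FRC), 59.7% (LEC) and 60.1% (BEC) of all. Gene names were updated by RefSeq accession with a GRCm38.p6 table, and probe positions (mm9) are those of the files. A gene was compared if a probe was well above background on either array. A gene dim in one population was given there the lowest intensity well above background (19.1 for FRC, 14.6 for LEC, 17.4 for BEC) or its own value if higher, which makes its fold a lower bound. Alternatives were normexp background, quantile and median scaling, another set for the percentile, the authors' table, no filter on dim probes, means over probes, other fold thresholds and levels divided by the spike-in slope. Without replicates no test was made, and the number of arrays limits the precision. Only the comparison step was run on simulated data, with shifts of 8-fold and 2-fold. That run shows only that the step works as written.

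The members and lists were chosen with earlier results of these data known. All members, each pathway gene called at 4-fold and the 2 nearest patterns per called member were named. Igf2r, Insr, Ghr and H19 were not called and were named for their roles after their values had been seen, as were marker genes.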

Additional observations from a re-analysis of the deposited data

How the results depend on the processing

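Of 216 differences of single IGF genes under 8 alternatives, 209 kept their direction and their side of 4-fold and 6 crossed 4-fold in the same direction. The 1 that changed sign was the uncalled Igfbp7 for FRC minus LEC, at -0.49 and, with levels divided by the spike-in slope, 1.38. Part of the 209 was fixed in advance. All 9 genes were well above background on all arrays, so the 27 differences without the filter on dim probes could not change. Means over probes could not change the 3 genes with 1 probe. The authors' table gave nearly the same values as quantile normalization, so these 2 alternatives count as little more than 1. Normexp background brought the uncalled Igfbp2 to 0.41 for FRC minus LEC and 0.70 for FRC minus BEC. Igf1 for LEC minus BEC was 1.95 with normexp background, Igfbp5 for FRC minus BEC was 0.61 as the mean of its probes, and Igfbp4 for FRC minus BEC was 2.0 with the percentile taken over probes above background on all arrays. Dividing levels by the spike-in slope of the array (0.821 for FRC, 1.00 for LEC and 0.919 for BEC), an alternative chosen after seeing the data, gave 2.29 for Igf1 and 2.37 for Igfbp5 for FRC minus LEC, and 2.51 for Igfbp4 for FRC minus BEC. It raised the FRC minus LEC count to 4 of 9, while the count over all genes rose from 2003 to 2778 of 18624. The medians of the members were then 1.65, 1.65 and 0.68 in the order FRC minus LEC, FRC minus BEC, LEC minus BEC, against 1.03, 1.74 and 0.94. The calls of Igfbp6, Igf2 and Igfbp3 held under all 8.

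The median for FRC minus BEC was 0.75 with normexp, 1.68 with quantile normalization and 1.68 in the authors' value table. The median for LEC minus BEC was 0.86 with normexp and 0.88 with median scaling. Means over probes gave 1.13, 1.14 and 0.36 in the same order as above. A 2-fold threshold, which by construction calls more, called 5, 8 and 5 of the 9 IGF genes and 4896, 6327 and 3914 of all genes. An 8-fold threshold called 2 IGF genes for FRC minus BEC and 1 for LEC minus BEC, with 1032, 1384 and 456 of all genes. Normexp, whose offset compresses dim values, called 1194, 1613 and 617 of all genes, against 2003, 2681 and 1248. With no filter on dim probes 1916 of 28471 genes were called for LEC minus BEC, against 1248 of 18497 genes with the filter. Leaving out the filter compares more genes by construction, so these 2 counts do not share a base. Where no construction is named, the cause was not tested.

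No paired analysis was possible because each population had 1 array and no replicate numbers were shared. With no replicates, leaving out an array leaves no comparison. Dim probes limit the folds of Igfbp2 and the lesser probes of Igf1, Igf1r and Igfbp3.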
